A study of Caenorhabditis elegans with 6 samples.

Results

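The genes described here are the abu, pqn, idpp and idpc genes of Caenorhabditis elegans, chosen as every gene whose symbol is one of these names followed by a number. There were 93 of them among the 46778 gene identifiers of the count tables, made up of 14 abu, 56 pqn, 16 idpp and 7 idpc genes. RNA sequencing counts came from whole animals raised on Escherichia coli from the egg and collected as L4 larvae, the larval stage before the adult. Poly-A RNA was sequenced. There were 3 groups, with 2 libraries each. Wild-type N2 animals ate the K12 strain BW25113, and animals of the strain UM10 ate either K12 or csgA(-) bacteria, a strain without csgA, whose product is the major building block of curli amyloid fibres. UM10 carries the insertion unkIs7, written aex-3p::alphasynA53T, an A53T form of human alpha-synuclein under the promoter of the neuronal gene aex-3. The transgene is a model of neuronal alpha-synuclein in 1 strain, so a second difference between the UM10 and N2 strains cannot be told apart from the transgene. N2 on csgA(-) was not analysed here, and neither was the level of the transgene.

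The lumen of the worm pharynx, the feeding organ, is lined by a cuticle that differs from the collagen-rich body cuticle. It contains chitin and many low-complexity proteins, and it is replaced at each moult together with the body cuticle. Several abu and pqn genes encode secreted proteins rich in glutamine, asparagine and cysteine that contribute to this lining. The abu genes take their name from activation in animals whose unfolded protein response in the endoplasmic reticulum is blocked, and pqn stands for a prion-like domain rich in glutamine and asparagine. The idpp and idpc genes are named for intrinsically disordered proteins assigned to the same structure. The pqn name was given for sequence alone, and it also covers intracellular proteins such as PQN-59, a relative of the stress granule protein UBAP2L, and PQN-41, which is needed for the death of the linker cell. Whole-animal RNA does not show in which cells a member was transcribed, so the pharyngeal location of each gene was not checked here.

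The 6 libraries held 22657727 to 23532382 gene counts. Levels are given as CPM, gene counts relative to the library total after TMM scaling (the trimmed mean method of edgeR), as single values per library. N2 replicate 1 stood apart, with a TMM factor of 0.610 against 1.02 to 1.199 in the other 5 libraries, so its CPM values are raised by the scaling. The food of the UM10 libraries follows the sample titles, whereas the deposited file names state the opposite foods for these 4 libraries. The comparison of all 4 UM10 libraries with N2 does not depend on that choice and is given first. Replicates are separate libraries by their labels, and nothing says that they came from separate cultures, so p-values measure the spread between libraries, which may be technical. In whole animals, fewer pharyngeal cells and less RNA per cell cannot be told apart.

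Of the 93 genes, 78 had enough counts to be tested. By the quasi-likelihood F test of edgeR, with p-values adjusted over 15331 genes by the Benjamini-Hochberg method, 29 were called lower and 1 higher in UM10 than in N2, at an adjusted p under 0.05. Among all genes tested, 5.25% were called lower and 5.07% higher. The 29 genes were 10 of 11 tested abu genes, 7 of 7 idpc, 3 of 13 idpp and 9 of 47 pqn genes. The median log2 fold change of the 78 genes was -1.16, against -0.04 for all genes tested. By family it was -4.69 for abu, -4.99 for idpc, -2.21 for idpp and -0.21 for pqn. Mean CPM of the 29 was 2.94 to 83.4 times higher in N2 than in UM10, with a median of 25.7 times. The filter could have been met from the UM10 libraries alone for 25 of the 29, while abu-4, idpp-5, idpp-11 and pqn-29 needed N2 counts. Exons of 7 of the 29 (abu-1, abu-4, abu-6, idpc-1, idpc-3, idpp-11 and pqn-26) overlap a gene on the other strand, and counts without strand cannot separate them. Without N2 replicate 1, 12 of the 29 were still called, and 49 genes were called in all.

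**Figure D1:**
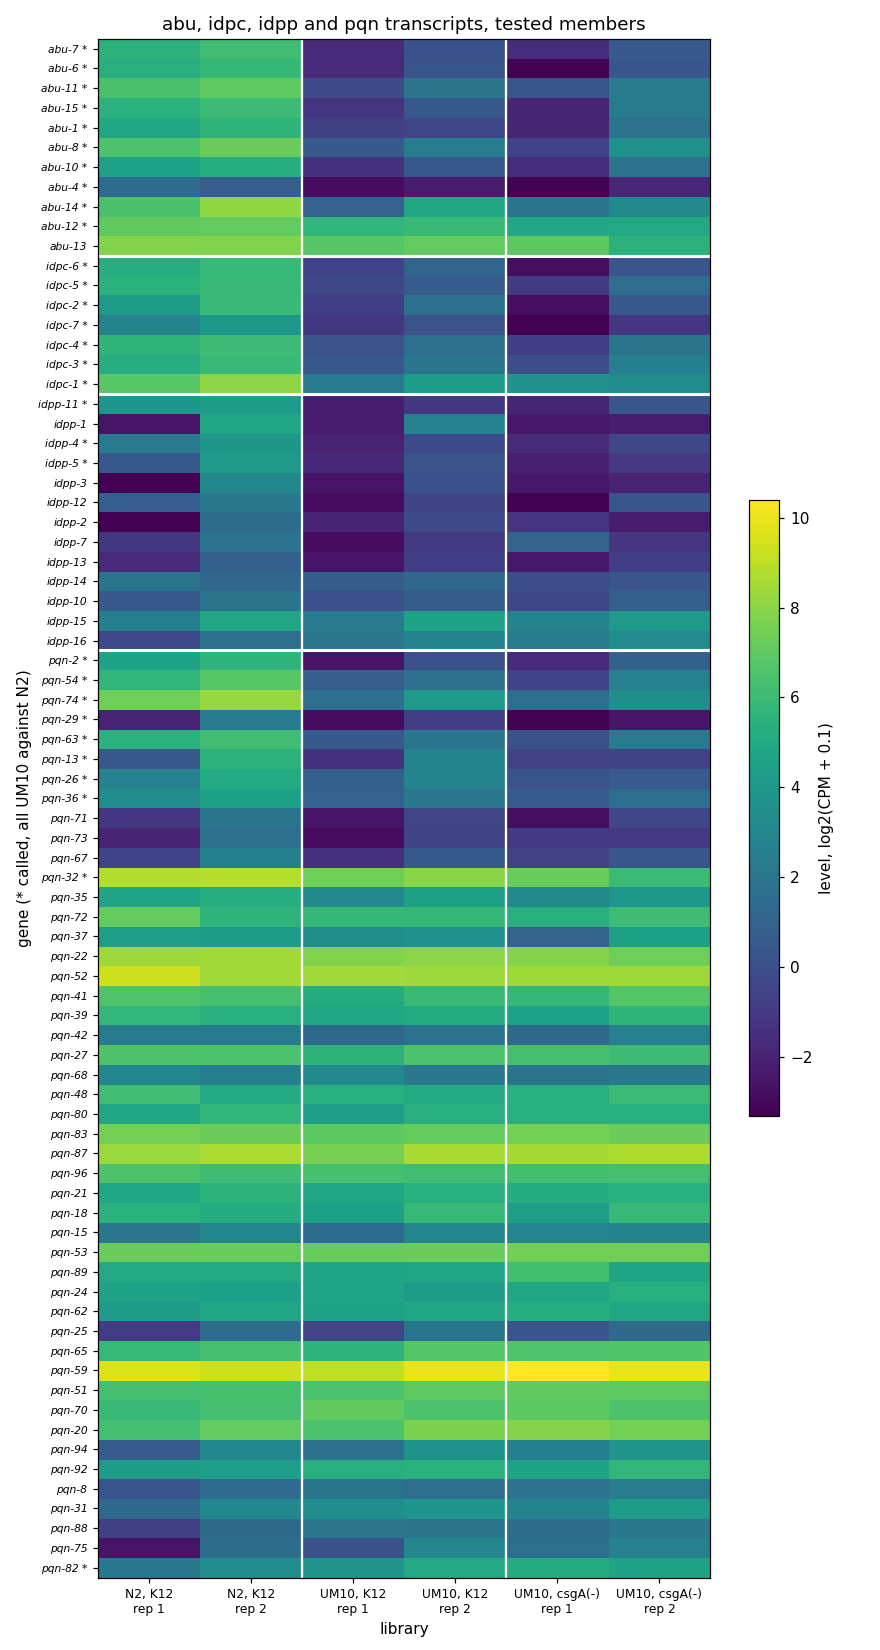
Level of the 78 tested genes in each of the 6 libraries as log2(CPM + 0.1), 1 row per gene grouped by family and ordered by change, with an asterisk at genes called in all UM10 against N2. The abu and idpc rows are brighter in both N2 columns than in the 4 UM10 columns, while most pqn rows show little difference. The rows of abu-12 and abu-13 differ less and stay high in UM10, and that of abu-4 is low in N2 as well.

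The largest fall among the abu genes was that of abu-7 (WBGene00000030, chromosome V, 5163270 to 5164782, WBcel235). Its level was 45.4 and 71.5 CPM in the N2 libraries, 0.220 and 0.995 in UM10 fed K12, and 0.247 and 1.34 in UM10 fed csgA(-). Every UM10 library lay far below the lower N2 library. This gave a log2 fold change of -6.38 ± 0.63 (standard error) and an adjusted p of 0.00122, the smallest p among the 78 genes. Its neighbour abu-6 (V, 5160678 to 5161892) was at 40.6 and 55.2 CPM in N2, 0.220 and 1.07 in UM10 fed K12 and 1.15 in csgA(-) replicate 2, and it had 0 counts in csgA(-) replicate 1. Its log2 fold change was -6.28 ± 0.83 (standard error, adjusted p 0.00390).

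The next gene along the chromosome, abu-15 (V, 5158602 to 5159907), went from 43.3 and 67.7 CPM in N2 to between 0.164 and 4.72 in UM10. On the same chromosome abu-8 (V, 5192995 to 5194608) had 89.7 and 152 CPM in N2 and 0.575 to 11.9 in UM10, and abu-1 (V, 10380340 to 10381826) had 28.97 and 50.1 against 0.164 to 3.46. The groups did not overlap for any of the 3 genes, and the log2 fold changes were -5.30, -4.69 and -5.25. Among these the highest UM10 value was in csgA(-) replicate 2 and the lowest in csgA(-) replicate 1. On other chromosomes, abu-11 (II, 192509 to 194558) fell from 88.4 and 125 CPM to between 0.807 and 4.99, with a log2 fold change of -5.34 ± 0.62 (standard error, adjusted p 0.00249). The X-linked abu-10 (X, 3798182 to 3799741) fell from 22.7 and 36.6 CPM to between 0.247 and 3.34, a log2 fold change of -4.63. A low gene of the family, abu-4, had 37 and 39 counts in N2 and 1, 3, 0 and 5 in the UM10 libraries, and was called as well.

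The gene abu-14 (II, 9225186 to 9227214), which has been linked to the structure of the pharyngeal cuticle and grinder, varied more between replicates. It was at 86.3 and 263 CPM in N2, 1.87 and 28.995 in UM10 fed K12, and 3.86 and 9.18 in UM10 fed csgA(-). The replicates of UM10 fed K12 differed 15.5-fold, but the groups still did not overlap, and the log2 fold change was -4.12 ± 0.79 (standard error, adjusted p 0.0121).

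A pair of abu genes changed much less. The level of abu-12 (X, 450446 to 457610) was 133 and 137 CPM in N2, 52.2 and 60.3 in UM10 fed K12 and 28.4 and 31.3 in UM10 fed csgA(-). The 3 groups were separate, and the log2 fold change against N2 was -1.72 ± 0.31 (standard error, adjusted p 0.00984). The highest abu gene in UM10, abu-13 (III, 6941888 to 6945898), was at 227 and 224 CPM in N2, 111 and 137 in UM10 fed K12 and 122 and 45.5 in UM10 fed csgA(-). It was not called (log2 fold change -1.14, adjusted p 0.0987), although no UM10 value reached those of N2.

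The idpc genes were the most uniform family, with all 7 called. The most abundant, idpc-1 (WBGene00012942, III, 11427206 to 11428414), was at 115 and 256 CPM in N2, 4.66 and 18.3 in UM10 fed K12 and 11.998 and 10.1 in UM10 fed csgA(-). Both N2 values were above every UM10 value, and the log2 fold change was -4.04 ± 0.51 (standard error, adjusted p 0.00295). Its exons overlap those of sbp-1 on the other strand, and the counts were taken without regard to strand. The strongest change was that of idpc-6 (V, 9620150 to 9621036), from 37.01 and 58.3 CPM in N2 to 0.587 and 2.03 in UM10 fed K12 and 0.0411 and 1.11 in UM10 fed csgA(-). Its log2 fold change was -5.76 ± 0.72 (standard error, adjusted p 0.00295).

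The 5 genes idpc-3 to idpc-7 lie together with pqn-63 between 9616031 and 9629214 on chromosome V. The 6 genes of this cluster had 2992 and 7782 counts in N2, 143 and 408 in UM10 fed K12, and 67 and 499 in UM10 fed csgA(-), and all 6 were called lower. The second most changed gene of the cluster was idpc-5, at 43.6 and 61.0 CPM in N2 and 0.411 to 2.88 in UM10, with a log2 fold change of -5.30 ± 0.59 (standard error, adjusted p 0.00231). For idpc-4 the N2 libraries were at 50.1 and 68.7 CPM and the UM10 libraries at 0.493 to 3.95, a log2 fold change of -4.81. A lower gene, idpc-7, had 6.81 and 15.9 CPM in N2 and at most 1.03 in UM10, with 0 counts in csgA(-) replicate 1. The smallest fall in the cluster was that of idpc-3, from 36.6 and 60.9 CPM to between 0.863 and 5.99, a log2 fold change of -4.05. Its exons overlap T06E4.7 on the other strand. For all 6 genes of the cluster the lowest UM10 value was that of csgA(-) replicate 1. Away from it on the same chromosome, idpc-2 (V, 8619925 to 8621313) was at 17.9 and 62.9 CPM in N2 and at 0.0411 to 3.21 in UM10, with a log2 fold change of -5.19 ± 0.87 (standard error, adjusted p 0.00777).

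**Figure D2:**
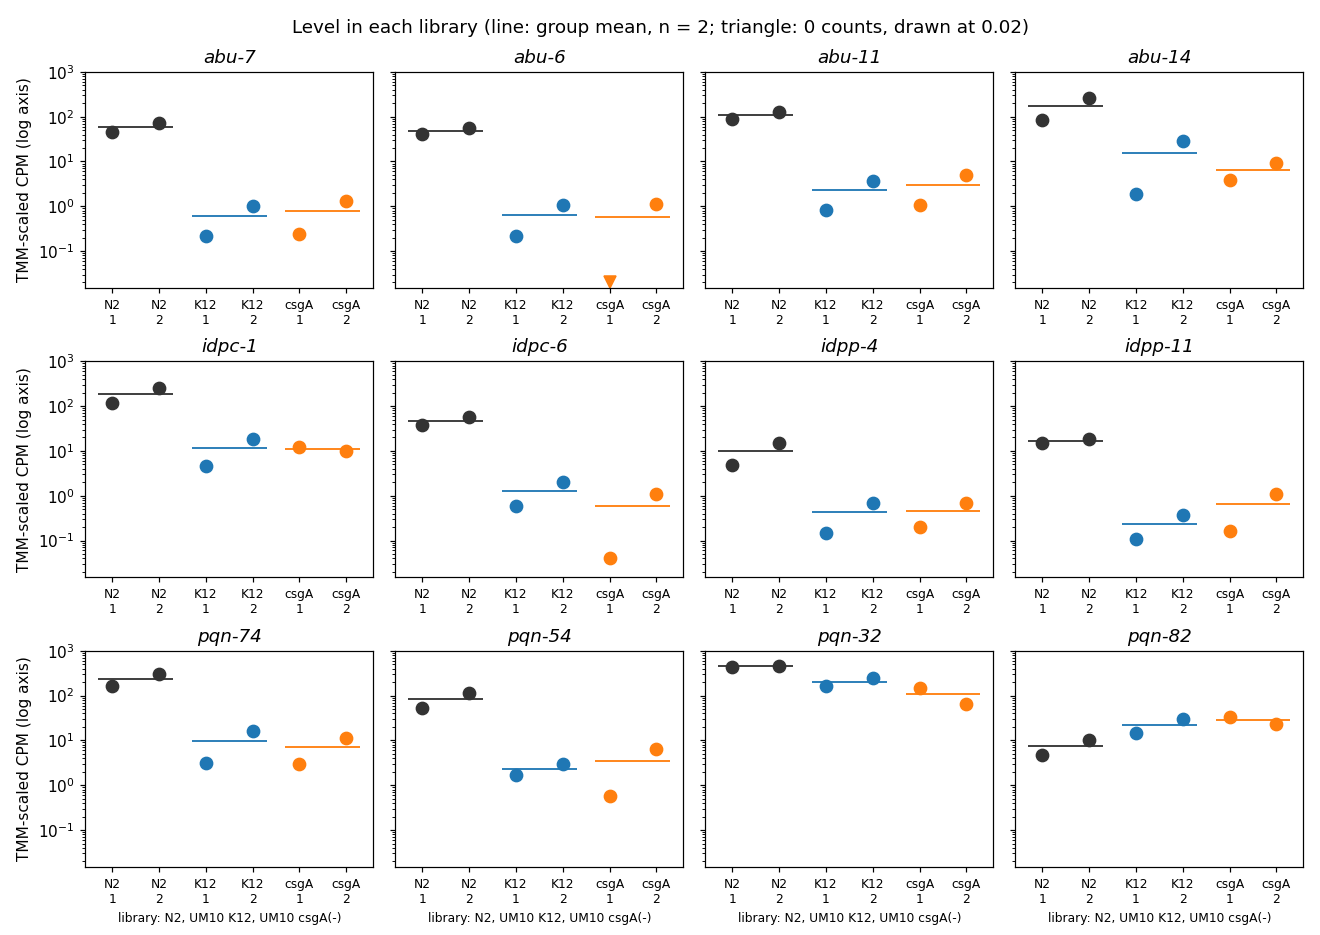
TMM-scaled CPM on a log axis in each library for 12 genes, with points for libraries, a line for each group mean (n = 2) and a triangle for 0 counts. For the first 11 genes both N2 points lie above all UM10 points, by a wide margin except for pqn-32, and for pqn-82 they lie below.

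Some of the genes lie next to each other. Members within 10000 bases of the next member formed 9 clusters. In 4 of them, which hold 13 of the 29 genes called lower, every gene was called lower, and 4 others held no called gene. The first 4 were abu-15, abu-6 and abu-7, the idpc and pqn-63 cluster, abu-1 with pqn-2 (V, 10380340 to 10384063), and idpp-5 with abu-10 (X, 3789742 to 3799741). Of the 4 clusters without a call, only pqn-24 with idpp-10 held tested genes. No call was possible in pqn-90 with pqn-91, abu-5 with pqn-78 and pqn-79, or pqn-57 with abu-9. The cluster of abu-15, abu-6 and abu-7 had 1786 and 4497 counts in N2 and 10 to 188 in the UM10 libraries. By chromosome, 16 of 27 members on V were called lower, 5 of 18 on X, 4 of 11 on II, 2 of 16 on III, 1 of 12 on IV and 1 of 9 on I. Among all genes tested on the same chromosomes the shares called lower were 6.67% on V, 7.54% on X, 5.98% on II, 3.10% on III, 4.69% on IV and 3.40% on I. The counts of members include untested genes, whereas these shares are of tested genes only. Neighbouring members may share sequence, which was not checked here, so they are not counted as independent of each other.

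Of the idpp genes, idpp-4, idpp-5 and idpp-11 were called lower. The level of idpp-11 (X, 7842541 to 7845557) was 14.8 and 18.2 CPM in N2, 0.110 and 0.368 in UM10 fed K12, and 0.164 and 1.11 in UM10 fed csgA(-). This gave a log2 fold change of -5.37 ± 0.64 (standard error, adjusted p 0.00253), with no overlap between N2 and UM10. The level of idpp-4 (II, 10321460 to 10324850) was 4.78 and 15.1 CPM in N2 and 0.147 to 0.700 in UM10, a log2 fold change of -4.50 (adjusted p 0.00572). For idpp-5 the N2 libraries were far apart, at 1.23 and 16.5 CPM, but both lay above the UM10 range of 0.123 to 1.03 (log2 fold change -4.48, adjusted p 0.0140). The other idpp genes were low or varied widely between N2 replicates. The members idpp-1 and idpp-3, whose counts are given with the replicates, had log2 fold changes of -4.59 and -4.06 and adjusted p-values of 0.0622 and 0.0583. The level of idpp-12 was at 1.59 and 4.45 CPM in N2 and 0 to 1.19 in UM10, without overlap (adjusted p 0.101). The low genes idpp-10, idpp-13 and idpp-14 had overlapping groups, with no value above 3.89 CPM, and adjusted p-values of 0.256, 0.207 and 0.165. In the case of idpp-15, values of 5.94 and 27.5 CPM in N2, 4.91 and 24.8 in UM10 fed K12 and 6.82 and 17.2 in UM10 fed csgA(-) overlapped fully. In the opposite direction, idpp-16 was at 0.724 and 3.07 CPM in N2 and 4.22 to 9.79 in UM10, without overlap and without a call (adjusted p 0.0958). Its exons overlap those of dhs-20 on the same strand.

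Among the pqn genes, the 9 called lower included 4 with falls as large as those of the abu genes. The most abundant of these, pqn-74 (WBGene00004156, IV, 13329507 to 13331406), was at 162 and 304 CPM in N2, 3.12 and 16.5 in UM10 fed K12, and 3.04 and 11.3 in UM10 fed csgA(-). Its log2 fold change was -4.80 ± 0.65 (standard error, adjusted p 0.00417). The others were pqn-2 (V, 10382442 to 10384063), pqn-54 (V, 1464990 to 1466360) and pqn-63 (V, 9616031 to 9617651), with log2 fold changes of -5.68, -4.88 and -4.38. In N2 their lower libraries were at 25.1, 52.8 and 42.5 CPM, and in UM10 their highest were at 1.77, 6.30 and 4.88, so none overlapped.

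Smaller falls were called for pqn-32 (II, 13108019 to 13110169), at 446 and 466 CPM in N2, 162 and 243 in UM10 fed K12 and 148 and 65.9 in UM10 fed csgA(-), and for pqn-36 (X, 15409148 to 15415493), at 10.1 and 22.4 CPM in N2 against 1.44 to 4.38. Their log2 fold changes were -1.63 and -2.62. The remaining called genes, pqn-13, pqn-26 and pqn-29, had overlapping groups. The level of pqn-13 was 1.304 and 44.6 CPM in N2 and 0.293 and 7.22 in UM10 fed K12, so the lower N2 library was below the higher UM10 library. Likewise pqn-26 was at 6.66 and 33.5 CPM in N2 and reached 6.89 in UM10, and pqn-29 was at 0.145 and 5.19 CPM in N2 and reached 0.479 in UM10. Without N2 replicate 2 the log2 fold change of pqn-13 was 0.17 in place of -3.96, and that of pqn-29 was -0.48 in place of -4.65.

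The only member called higher was pqn-82 (III, 1849047 to 1852473), at 4.64 and 10.4 CPM in N2, 14.3 and 30.4 in UM10 fed K12 and 34.1 and 23.7 in UM10 fed csgA(-). The groups did not overlap, and the log2 fold change was 1.75 ± 0.48 (standard error, adjusted p 0.0429). This call was made in 8 of 14 alternative fits. The next pqn genes by p in this direction were not called. The level of pqn-92 was 18.9 and 20.8 CPM in N2 and 23.9 to 54.02 in UM10, without overlap (adjusted p 0.118). That of pqn-31 was 2.46 and 8.21 CPM in N2 and 7.19 to 19.4 in UM10, with overlap (adjusted p 0.174). Counting every tested member, 30 had all UM10 values below both N2 values and 7 had all above, against 16.2% and 21.1% of all genes tested.

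**Figure D3:**
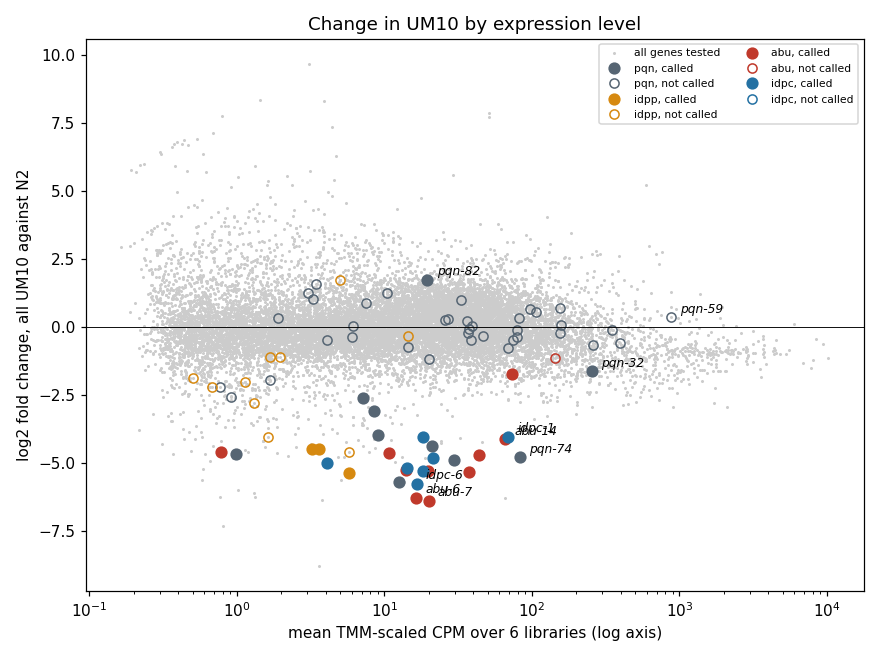
Log2 fold change in all UM10 libraries against N2, by mean TMM-scaled CPM over the 6 libraries (log axis), for 15331 genes in grey and for the members by family, filled where called. The called abu, idpc and pqn genes form a group between about -4 and -6.4, apart from abu-12, pqn-26, pqn-32 and pqn-36, and pqn-82 is the single filled point above 0.

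Most pqn genes were not called, and the most abundant members were among them. Per kilobase of exon over all libraries the highest was pqn-59, at 314 CPM per kilobase in N2 and 413 in UM10, followed by pqn-52 (235.3 and 159), pqn-32 (233 and 79.1), pqn-96 (123 and 116) and pqn-53 (93.4 and 99.2). Of these 5 only pqn-32 was called. In N2, idpc-1 (174 CPM per kilobase), pqn-74 (155) and abu-14 (124) held ranks 4, 5 and 6 of the 93 genes, and in UM10 they held ranks 27, 35 and 30. The level of pqn-59 was 796 and 657 CPM in N2, 536 and 991 in UM10 fed K12, and 1340 and 950 in UM10 fed csgA(-), and that of pqn-96 was 69.5 to 96.0 CPM in all 6 libraries. A difference between N2 and UM10 was not detectable for either gene with these replicates.

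The 15 genes that were not tested were abu-2, abu-5, abu-9, idpp-6, idpp-8, idpp-9, pqn-10, pqn-16, pqn-57, pqn-76, pqn-78, pqn-79, pqn-84, pqn-90 and pqn-91. Their highest count was 118, for idpp-9 in N2 replicate 2. The genes pqn-76, pqn-78 and pqn-79 had 0 counts in every library and abu-5 had 1 in all, and these 4 genes share an exon length of 1008 bases on chromosome IV. Reads that map to several places were kept out of the gene counts, and they were 2.57% to 4.05% of all reads. Members with near-identical copies can therefore be under-counted, and their 0 counts do not show that they are silent.

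By the titles, the strain comparison on the same food is UM10 fed K12 against N2. Here 20 members were called lower and 0 higher, while 0.541% of all genes were called lower and 2.2% higher. At an unadjusted p under 0.05 there were 33 members in either direction and 19.1% of all genes, and DESeq2 called 24 members and 7.61% of all genes. The 20 genes were 8 abu, 6 idpc, 2 idpp and 4 pqn genes, led by abu-7 with a log2 fold change of -6.58 ± 0.86 (standard error, adjusted p 0.0108). No member was called when N2 replicate 1, N2 replicate 2 or UM10 fed K12 replicate 1 was left out, and 13 were called without UM10 fed K12 replicate 2.

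UM10 fed csgA(-) differs from N2 in strain and food together. In this comparison 28 members were called lower and 1 higher, against 5.11% and 3.95% of all genes. The 28 were 10 abu, 7 idpc, 3 idpp and 8 pqn genes, and the gene called higher was pqn-82, with a log2 fold change of 1.94. The log2 fold change of abu-7 was -6.18 ± 0.84 (standard error, adjusted p 0.00620), and that of idpc-6 was -6.34. Without N2 replicate 1 the count lower was 10, and without N2 replicate 2 it was 16. Both comparisons use the same N2 libraries. All 20 genes called on K12 were among the 28, and the other 8 were abu-12, abu-14, idpc-2, idpp-5, pqn-26, pqn-29, pqn-32 and pqn-36.

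The food comparison within UM10 set csgA(-) against K12. By edgeR's quasi-likelihood test 0 members were called and 0% of all genes, with 3 members and 9.92% of all genes at an unadjusted p under 0.05. DESeq2 also called 0 members but 1.57% of all genes, with 5 members and 10.8% of all genes at an unadjusted p under 0.05. Those 3 were abu-12, idpp-1 and pqn-26, each lower on csgA(-) by the titles and higher if the file names are right. The log2 fold change of abu-12 was -0.92, with a 95% interval from -1.74 to -0.09 and an adjusted p of 0.437. The interval for abu-7 ran from -1.31 to 2.10 and that for idpc-1 from -1.37 to 1.26, so changes of over 2-fold in either direction lie within these intervals. The median log2 fold change of the 78 genes was 0.14, against 0.00 for all genes tested, and it was 0.10 with 3 genes at the floor of 3 counts set to their bounds.

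Replicates of a group also differed in these genes. Of the 29 genes called lower, 28 were higher in replicate 2 than in replicate 1 of N2, 29 in UM10 fed K12 and 27 in UM10 fed csgA(-). The share of all tested genes higher in replicate 2 was 53.4%, 56.6% and 50.7%. Within N2 the tested abu and idpc genes ran from 0.629-fold (abu-4) to 3.52-fold (idpc-2), replicate 2 over replicate 1. The value was 1.57-fold for abu-7, 2.24-fold for idpc-1 and 3.05-fold for abu-14. Another set of members, chosen after their values were seen, was over 8-fold higher in N2 replicate 2. These were 11 of the 78 genes, or 14.1%, against 2.05% of all genes tested, namely idpp-1, idpp-2, idpp-3, idpp-5, idpp-7, pqn-13, pqn-29, pqn-67, pqn-71, pqn-73 and pqn-75.

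The widest gap was that of idpp-1 (III, 740682 to 742941), with 1 count in N2 replicate 1 and 645 in replicate 2. In UM10 fed K12 it had 3 and 173 counts, and in UM10 fed csgA(-) 2 and 3. Similarly, idpp-3 had 0 and 196 counts in N2, 2 and 27 in UM10 fed K12, and 2 and 4 in UM10 fed csgA(-). All 11 genes were higher in replicate 2 of UM10 fed K12, and 8 were in UM10 fed csgA(-). N2 and UM10 overlapped in 10 of the 11, the exception being idpp-5. Across the 78 genes, the difference between replicates in N2 had a Pearson correlation of 0.72 with that in UM10 fed K12 and of -0.05 with that in UM10 fed csgA(-). Over all 15331 genes tested, with a different offset in log2 CPM, the values for the same pairs of groups were 0.35 and -0.079. Each group gave a single pair of libraries, so these values describe the libraries. The source of the correlation was not tested.

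**Figure D4:**
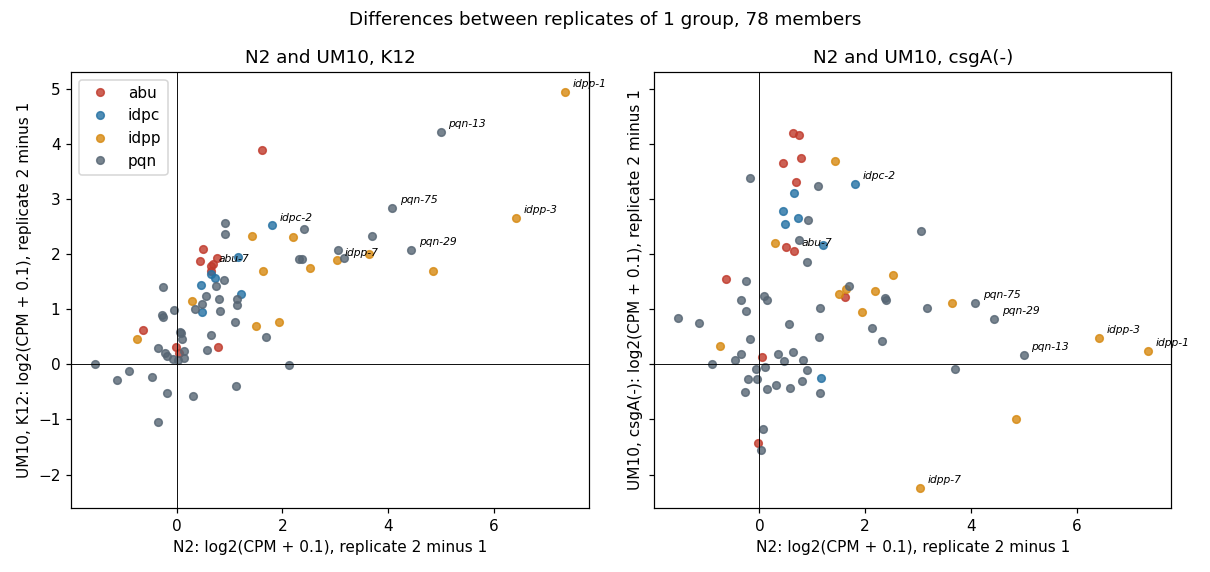
Difference between replicate 2 and replicate 1 in log2(CPM + 0.1) for the 78 tested genes, N2 on the horizontal axis and UM10 fed K12 (left) or UM10 fed csgA(-) (right) on the vertical axis, coloured by family. On the left idpp-1 and pqn-13 lie at the upper right. On the right most abu and idpc genes lie near 0.7 in N2 and between 2 and 4 in csgA(-).

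Markers of the pharynx differed between the same libraries. The list of pharyngeal muscle genes, which holds the myosin genes myo-1 and myo-2, had 0 of 8 genes called in any of the 4 comparisons by edgeR. In all UM10 against N2, 2 of them had an unadjusted p under 0.05 and DESeq2 called 1. Over all genes in this comparison 28.3% had an unadjusted p under 0.05, and DESeq2 called 2661 of 15331. The same values hold for the lists that follow in this comparison. The summed level of the muscle list was 89.0 and 403 CPM in N2, 50.96 and 164 in UM10 fed K12 and 80.0 and 188 in UM10 fed csgA(-), so N2 and UM10 overlapped. The transcript of myo-2 was at 28.0 and 146 CPM in N2 and 2.53 to 58.4 in UM10. That of the transcription factor ceh-22, with at most 31 counts in any library, was at 0 in UM10 fed K12 replicate 1. Only mlc-7 had a positive log2 fold change (0.24), at 19.3 and 19.2 CPM in N2 and 18.7 to 27.1 in UM10. Those of tnc-2, myo-5 and tni-4 were -0.51, -0.49 and -0.68. The falls of ceh-22, tnt-4, myo-2 and myo-1 were larger, at -2.23, -1.77, -1.53 and -1.39, and the median of the list was -1.03. Of 8 pharyngeal gland genes edgeR called 0 and DESeq2 1, with 2 at an unadjusted p under 0.05. Their median log2 fold change was -0.93, and their sums were 27.8 and 264 CPM in N2 and 36.2 to 157 in UM10. The sums of both lists were higher in replicate 2 of each group. Of the 78 members, 61 were higher in replicate 2 of N2, 70 in UM10 fed K12 and 60 in UM10 fed csgA(-). The part of pharyngeal tissue in the results was not tested. The summed abu level was 808 and 1184 CPM in N2, 168 and 241 in UM10 fed K12 and 157 and 117 in UM10 fed csgA(-). These sums include abu-12 and abu-13, which changed less than the other tested abu genes.

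Other genes of the pharyngeal cuticle were low in counts. The list of idpa and idpb genes, the chitin synthase gene chs-2 and nep-1 had 4 of 10 genes tested, with a median log2 fold change of -1.89 in all UM10 against N2. By edgeR 1 of them, idpa-3, was called lower, DESeq2 called 2, and 3 had an unadjusted p under 0.05. It was at 0.869 and 4.67 CPM in N2 and 0.147 to 0.691 in UM10. The level of chs-2 was 2.25 and 18.2 CPM in N2 and 1.43 to 4.31 in UM10, with overlap and an adjusted p of 0.111.

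A part of the moulting genes was also lower in UM10. Of 16 genes for moulting enzymes, regulators and apical matrix, 5 were called lower and 0 higher in all UM10 against N2, 0 in UM10 fed K12, and 7 lower in UM10 fed csgA(-), by edgeR. DESeq2 called 10, 3 and 12 of them, and 11, 4 and 13 had an unadjusted p under 0.05. Over all genes 5.25%, 0.541% and 5.11% were called lower by edgeR. DESeq2 called 2661, 1167 and 2565 of 15331 genes in either direction, and 28.3%, 19.1% and 28.4% had an unadjusted p under 0.05. The summed level was 2819 and 4595 CPM in N2, 1267 and 2250 in UM10 fed K12 and 867 and 658 in UM10 fed csgA(-). The median log2 fold change of the list was -1.23, against -1.16 for all tested members. By family the members were at -4.69 for abu, -4.99 for idpc, -2.21 for idpp and -0.21 for pqn. The 5 genes called in all UM10 were mlt-10, lin-42, bli-1, bli-2 and ptr-4. The largest falls of the list were those of mlt-10 and lin-42, with log2 fold changes of -2.58 and -2.22. The level of mlt-10, a gene required for moulting, was 112 and 419 CPM in N2 and 19.5 to 95.5 in UM10. That of lin-42, a period homologue that sets the moulting rhythm, was 832 and 889 against 102 to 341. The smallest falls were those of nhr-25 and mlt-7 (-0.16 and -0.32). Only nhr-23 had a positive log2 fold change (0.36), with overlapping groups. Of 14 body cuticle collagens of the hypodermis edgeR called 7 lower in all UM10, 0 in UM10 fed K12 and 8 in UM10 fed csgA(-), and in all UM10 DESeq2 called 12, with 12 at an unadjusted p under 0.05. Their median log2 fold change in all UM10 against N2 was -1.47, and their sums were 9660 and 7864 CPM in N2 and 2697 to 4876 in UM10. The part of moulting stage in the results was not tested.

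Genes of the unfolded protein response, which gave the abu genes their name, were not called by edgeR. In each of the 4 comparisons 0 of 14 genes were called. In all UM10 against N2, 28.3% of all genes had an unadjusted p under 0.05, and DESeq2 called 2661 of 15331. Of the 14 genes, 5 had an unadjusted p under 0.05 and DESeq2 called 3, and their median log2 fold change was -0.04. Those 5 differed in direction, with log2 fold changes of -1.49 for the chaperone gene hsp-3, -1.37 and -1.27 for the disulfide isomerase genes pdi-2 and pdi-6, 1.22 for the kinase gene pek-1 and 0.80 for the transcription factor gene atf-6. The chaperone gene hsp-4, a standard reporter of this response, was at 265 and 305 CPM in N2, 271 and 365 in UM10 fed K12, and 988 and 270 in UM10 fed csgA(-).

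**Figure D5:**
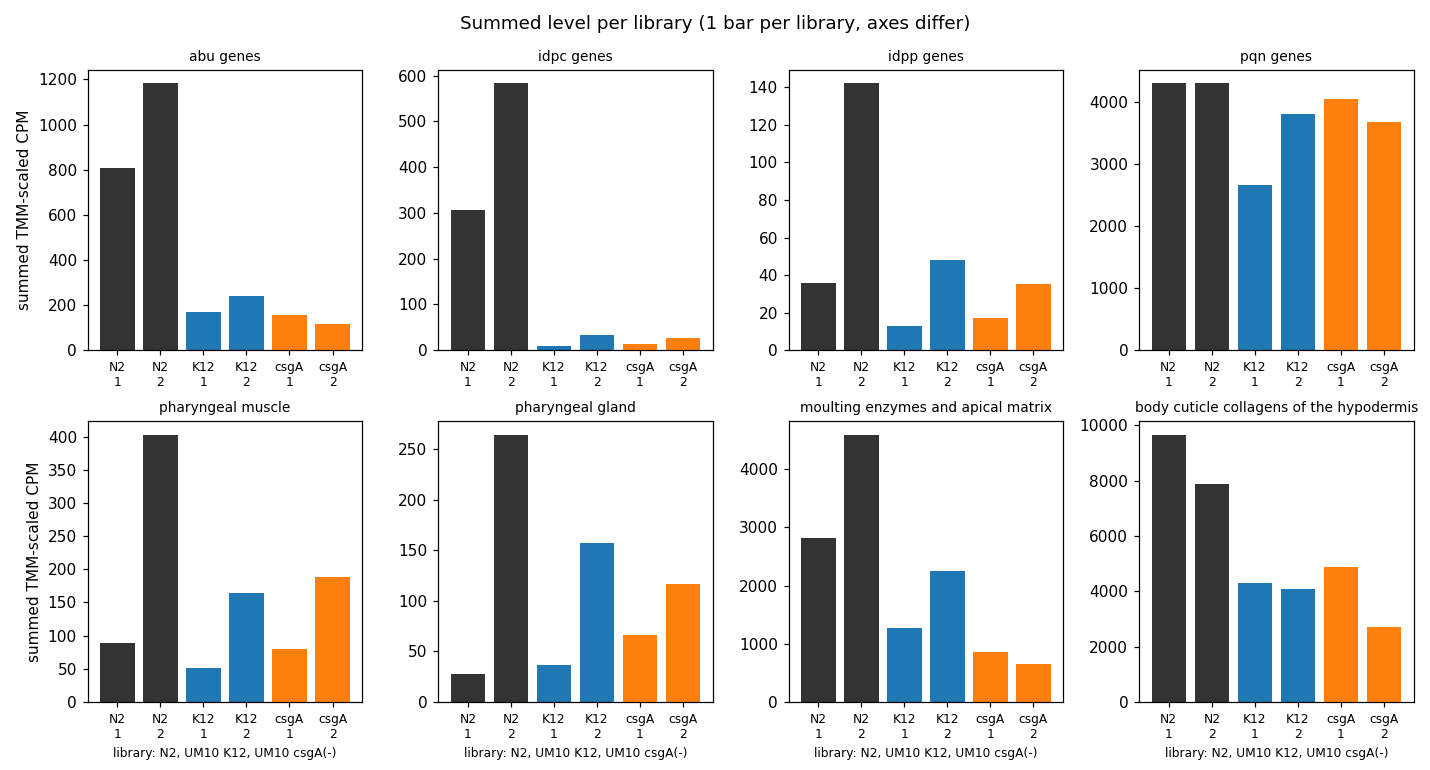
Summed TMM-scaled CPM per library (1 bar each, axes starting at 0 and differing between panels) for the abu, idpc, idpp and pqn genes and for 4 marker lists. The abu and idpc bars are far lower in all 4 UM10 libraries, at 117 to 241 and 9.02 to 32.7 CPM, while the pharyngeal muscle and gland bars of N2 and UM10 overlap.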

How the data were processed

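The authors deposited 1 table of raw read counts per gene for each library, in the layout of the STAR aligner, with an unstranded count and a count per strand. The submitters' processing notes name STAR 2.7.5, DESeq2 1.28.1 and the build WBcel235; the annotation version is not given in the sources used here. The unstranded counts were used, and the summary lines for reads outside genes, 7.85% to 8.72% of reads, were left out. Symbols came from a gene name table and coordinates from Ensembl release 115 (WBcel235), which holds 46603 of the 46778 identifiers. Genes were kept by filterByExpr (a minimum of 10 counts, scaled to library size, in 2 libraries, and 15 in total). edgeR 4.0.16 in R 4.3.3 was fitted to all 6 libraries with TMM scaling and 1 term per group (3 residual degrees of freedom). Standard errors were derived from each F statistic and its log2 fold change. Replicates differed beyond sampling noise, by a chi-square of 93.9 to 133 for each degree of freedom. The fit was checked on simulated counts. DESeq2 1.42.0 was an alternative.

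The members and lists were chosen with earlier results of these data known. Named genes were every abu, idpp and idpc gene that passed the filter, every called pqn gene, the 3 pqn genes with the smallest p in each direction and the 5 highest members per kilobase. Sequences of promoters and proteins were not used here. Other comparisons were made by counts and medians with no test of the list.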

Additional observations from a re-analysis of the deposited data

How the results depend on the processing

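For all UM10 against N2 the count of members called lower was 25 to 41 over the alternatives that kept every library and 12 to 33 with 1 library left out, lowest without N2 replicate 1. Of the 29, 10 were called in all alternatives run, namely abu-7, abu-11, idpc-1, idpc-5, idpc-6, idpp-4, idpp-11, pqn-54, pqn-63 and pqn-74. The log2 fold change of abu-7 ran from -7.21 to -6.02 and its adjusted p up to 0.0236. The count called higher, 1, became 0 with upper-quartile factors, 2 with DESeq2, 3 without the low-count filter, 4 with the replicate block, 0 in a 2-group fit and 0 to 3 with 1 library left out. The count over all genes, 1582, became 2661 with DESeq2, 2831 without the filter, 2418 with the replicate block, 807 in the 2-group fit and 49 to 1774 with 1 library left out.

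For UM10 fed K12 against N2, 421 genes became 276 with upper-quartile factors, 1167 with DESeq2, 1333 without the filter, 845 with the replicate block and 2 to 579 with 1 library left out. Members called lower, 20, became 34 without the filter and 0 to 25 with 1 library left out, and members higher became 1 without the filter. For UM10 fed csgA(-) against N2, 1388 genes became 2565, 2705 and 2434 with DESeq2, no filter and the replicate block, and 157 to 1544 with 1 library left out. Members higher, 1, became 0 with upper-quartile factors, 2 with DESeq2, 2 without the filter, 3 with the replicate block, 0 with only the libraries compared and 0 to 2 with 1 library left out. Members lower ran from 10 to 29 with 1 library left out. In the food comparison, 0 genes became 241 with DESeq2, 470 without the filter, 1 and 4 with the stranded columns, 165 with the replicate block and 0 to 78 with 1 library left out, and members lower became 2 without the filter.

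With 1 library left out, log2 fold changes of uncalled or single-library genes in all UM10 against N2 changed sign: idpp-1 ran from -6.98 to 2.90, idpp-2 from -3.26 to 5.88, idpp-3 from -5.43 to 5.61, idpp-7 from -3.18 to 0.48, idpp-13 from -2.77 to 0.32, idpp-15 from -1.15 to 1.16, pqn-13 from -5.77 to 0.17 and pqn-96 from -0.31 to 0.083. The highest values of the idpp genes and pqn-13 came without N2 replicate 2. That of pqn-53 was -0.068 with upper-quartile factors. The lone library of a group was assumed to vary like the other groups. Median log2 fold changes of all genes in all UM10 against N2 were -0.04 under TMM, against -0.10 under the DESeq2 size factors and -0.19 under upper-quartile scaling. The labels do not say whether libraries with the same replicate number share anything else, and this was not tested. Over 15331 genes, same-numbered deviations correlated at 0.35 between N2 and UM10 fed K12. The values were -0.079 between N2 and UM10 fed csgA(-), and 0.093 between the UM10 groups. The causes of these changes were not tested.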

Other observations

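Marker lists of other tissues gave these values in all UM10 against N2, where 28.3% of all genes had an unadjusted p under 0.05. Of 15331 genes, DESeq2 called 2661. Of 8 germline genes edgeR called 0 and DESeq2 3, with 6 at an unadjusted p under 0.05, a median log2 fold change of 1.15 and sums of 859 and 2001 CPM in N2 and 1922 to 3828 in UM10. Of 9 neuronal genes 0 were called by either tool, with 0 at an unadjusted p under 0.05, a median of -0.13 and sums of 1124 and 692 CPM in N2 and 629 to 1005 in UM10. Of 7 body wall muscle genes edgeR called 0 and DESeq2 1, with 1 at an unadjusted p under 0.05 (median -0.66). Of 9 tested genes listed as pharyngeal transcription factors 0 were called by either tool, with 1 at an unadjusted p under 0.05 (median -0.38). That list holds pqm-1 (log2 fold change 0.35), whose expression in the pharynx was not checked. Of 9 intestinal genes edgeR called 1 lower and DESeq2 called 4, with 4 at an unadjusted p under 0.05 and a median of -1.05. The gene called by edgeR was act-5, the actin of the intestinal brush border, at 5538 and 1901 CPM in N2 and 136 to 1292 in UM10. The collagen gene col-19, a marker of the adult cuticle, was at 1487 and 572 CPM in N2 and 949 to 1673 in UM10 and was not called.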
